A study of Homo sapiens with 6 samples.

Results

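TLE3 binding sites at gene ends that were called both after FOXA1 silencing and in control cells are described here. The sites come from ChIP-seq, in which DNA cross-linked to a protein is precipitated with an antibody and sequenced. The cells were MDA-MB-453, a breast carcinoma line with an apocrine, androgen receptor-positive character. In the siFOXA1 cells FOXA1 was silenced transiently (2 libraries), and they are set against siNS cells, in which it was not (2 libraries). Replicates are labelled as biological ones, all of 1 cell line and with the same TLE3 antibody, fixed with an additional cross-linker ahead of formaldehyde. The labels give no siRNA sequence, dose or time after transfection, and the 2 input libraries were not analysed here. Neither the depth of the silencing nor the cell type can be checked from peak lists, which hold no expression values.

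Peaks that shared at least 1 bp between the 4 lists were merged on chromosomes 1 to 22 and X, which gave 72272 regions. Of these, 2602 held a peak of all 4 lists and are called common below. The members are the 315 common regions at gene ends, that is, no more than 1 kb away from the start or the other end of a protein-coding gene. The remaining common regions were 1193 inside genes and 1094 between genes. Members were chosen by the peak calls of both groups and by position, so the values below are descriptions without tests. With 2 libraries against 2, a two-sided exact permutation test cannot go below p = 0.333.

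TLE3 is a member of the Groucho family of corepressors. These proteins do not bind DNA by themselves but are brought to chromatin by DNA-binding factors such as HES, TCF and forkhead proteins, where they recruit histone deacetylases. FOXA1 is a forkhead pioneer factor of the luminal breast lineage that opens compacted chromatin, mostly at enhancers away from gene starts. Gene starts carry promoters, many of them rich in CpG dinucleotides and open whether or not a lineage factor is bound.

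The members differed in whether the peaks left after FOXA1 silencing lay on the promoter itself or beside it. The promoter windows of 4 genes are shown for this contrast, from 250 bases before to 50 bases after the start, read 5′ to 3′ along the gene and taken from RefSeq (GRCh38.p14). Capitals mark bases covered by peaks of both siFOXA1 lists, and lower case marks the rest.
TNK2: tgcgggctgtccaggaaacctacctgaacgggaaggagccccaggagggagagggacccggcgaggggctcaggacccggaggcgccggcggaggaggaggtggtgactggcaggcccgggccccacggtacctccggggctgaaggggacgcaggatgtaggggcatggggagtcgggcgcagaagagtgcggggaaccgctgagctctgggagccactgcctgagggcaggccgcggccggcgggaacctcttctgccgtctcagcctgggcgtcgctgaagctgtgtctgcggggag
ELF3: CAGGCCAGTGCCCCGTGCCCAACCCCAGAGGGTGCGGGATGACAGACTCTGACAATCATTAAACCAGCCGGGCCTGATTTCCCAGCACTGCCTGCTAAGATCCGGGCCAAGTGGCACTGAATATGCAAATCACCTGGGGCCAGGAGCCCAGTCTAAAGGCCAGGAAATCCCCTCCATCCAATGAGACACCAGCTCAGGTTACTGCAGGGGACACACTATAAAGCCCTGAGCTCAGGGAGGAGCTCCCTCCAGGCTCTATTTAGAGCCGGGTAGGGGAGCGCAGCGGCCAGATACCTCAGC
FOXA1: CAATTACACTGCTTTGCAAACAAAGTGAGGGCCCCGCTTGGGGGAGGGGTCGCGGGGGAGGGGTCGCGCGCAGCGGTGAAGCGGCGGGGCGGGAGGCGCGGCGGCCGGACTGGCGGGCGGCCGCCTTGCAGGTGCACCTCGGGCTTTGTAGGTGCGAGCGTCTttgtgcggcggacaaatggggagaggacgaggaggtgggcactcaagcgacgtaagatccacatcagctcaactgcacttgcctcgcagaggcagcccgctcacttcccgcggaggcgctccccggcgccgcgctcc
TLE1: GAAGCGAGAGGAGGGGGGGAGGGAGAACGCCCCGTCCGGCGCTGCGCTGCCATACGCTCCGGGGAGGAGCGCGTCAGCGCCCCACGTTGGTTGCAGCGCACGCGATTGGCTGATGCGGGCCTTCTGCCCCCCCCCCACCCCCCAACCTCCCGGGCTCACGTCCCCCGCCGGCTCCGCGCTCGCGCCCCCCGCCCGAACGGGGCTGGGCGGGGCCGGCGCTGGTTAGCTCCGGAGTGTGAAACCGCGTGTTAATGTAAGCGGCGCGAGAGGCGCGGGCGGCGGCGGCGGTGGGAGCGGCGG
The window of TNK2, a non-receptor tyrosine kinase, lay at chr3:195908502-195908801 on the minus strand and had no base under peaks of both siFOXA1 lists, although each siNS list covered all 300 bases. The window of ELF3, an epithelial transcription factor of the ETS family, lay at chr1:202010337-202010636 on the plus strand and was covered over all 300 bases by every list. The window of FOXA1 itself lay at chr14:37595200-37595499 on the minus strand and had 163 bases under both siFOXA1 lists. The window of TLE1, another Groucho corepressor, lay at chr9:81689498-81689797 on the minus strand and was covered over all 300 bases in both siFOXA1 lists. The covered windows of ELF3 and TLE1 were the less common kind: of 151 member genes with a window, 10 (6.62%) had it wholly inside peaks of both siFOXA1 lists and 102 (67.5%) had no base there. The same windows were wholly inside peaks of both siNS lists for 100 genes (66.2%) and outside them for 34 (22.5%). The siFOXA1 peaks were narrower than the siNS peaks, as given below, and widths were not matched for these counts.

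The lists themselves differed between the groups. On the chromosomes used, siFOXA1 1 held 12249 and siFOXA1 2 held 13754 peaks, against 45105 in siNS 1 and 46586 in siNS 2. Peaks were also narrower, with medians of 336 and 347 bp in siFOXA1 and 419 and 446 bp in siNS. No list gives reads or coverage, so the depth is unknown, and fewer bound sites, a lower yield of the immunoprecipitation and less sequencing cannot be told apart. Exact (Clopper-Pearson) intervals at the 95% level below cover counting error over regions only.

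Gene ends were where few TLE3 sites of control cells were found again after FOXA1 silencing. Of 10655 regions with a peak in both siNS lists at a gene end, 315 (2.96%) also had a peak in both siFOXA1 lists, against 2287 of 14312 such regions elsewhere (16%). Over all merged regions the share with a peak in all 4 lists was 3.6%, and over merged regions at gene ends it was 2.05%. Accordingly, gene ends made up 12.1% of common regions (exact interval 10.9 to 13.4%) and 48.2% of regions called in both siNS lists but in neither siFOXA1 list (47.5 to 48.8%). Of the 3282 regions called in both siFOXA1 lists but in neither siNS list, 36 lay at a gene end, which is 1.1% (0.769 to 1.52%). Seen from the siFOXA1 side, 315 of 405 siFOXA1 consensus regions at gene ends (77.8%) had peaks of both siNS lists, against 29.3% of the 7800 elsewhere. A further 408 regions at gene ends were called in 3 lists, of which 354 had both siNS lists and 1 siFOXA1 list, and 54 had both siFOXA1 lists and 1 siNS list.

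The 2 ends of a gene differed in this respect. Strand, and so the start, was known for 15812 of 19974 protein-coding genes (79.2%). With these, 177 members (56.2%) lay at a start, 64 (20.3%) at the other end, where transcription stops, and 74 (23.5%) at an end of unknown kind. Of the 8221 siNS consensus regions at starts, siFOXA1 1 held a peak in 3.61%, siFOXA1 2 in 3.75% and both lists in 2.15% (exact interval 1.85 to 2.49%). Of the 537 at other ends, the values were 15.8%, 16.2% and 11.9% (9.3 to 15%). These stand beside the 14.8% (14 to 15.6%) of 8061 siNS regions inside genes and the 17.5% (16.6 to 18.5%) of 6251 between genes, for both lists. Recovery was thus lowest at starts, and the interval of the other ends overlapped that of the bodies of genes. The share at other ends was 5.04% without siNS 2 and 9.04% when measured to the stretch shared by all lists. The share inside genes was not recomputed under these settings, so whether the overlap holds there was not tested.

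**Figure D1:**
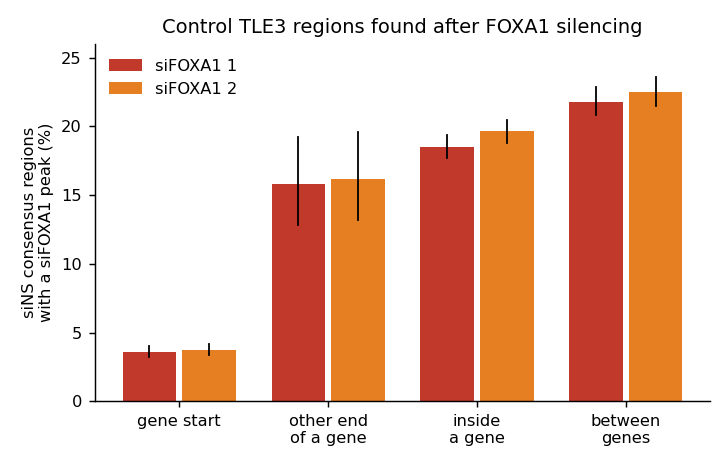
Share of siNS consensus regions (vertical axis, percent, starting at 0) that also held a peak of siFOXA1 1 or of siFOXA1 2, by place, without ends of unknown kind; lines show exact intervals. Gene starts have the lowest shares, 3.61% and 3.75%, against 15.8% and 16.2% at other ends.

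The share was also read by the strength of a site in control cells. Strength was the mean percentile of a region in the 2 siNS lists, where the percentile is the share of the list's peaks with a score at or below the region's best score, and siNS regions were divided into 10 equal bins. In the strongest bin, 123 of 664 regions at starts (18.5%) were common, against 52.8% of 72 at other ends, 51.1% of 912 inside genes and 52.9% of 663 between genes. In the next bin down the share was 2.89% of 935 regions at starts and 10.6% of 47 at other ends, against 23.8% of 745 inside genes and 30.5% of 557 between genes. Most start members, 123 of 177, therefore came from the strongest bin.

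**Figure D2:**
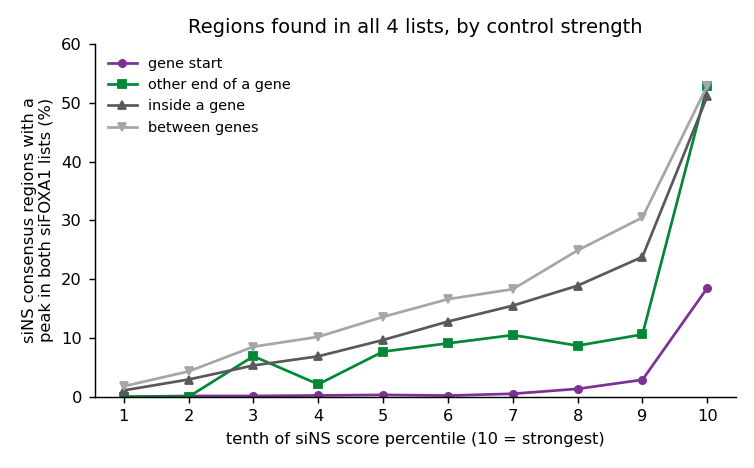
Share of siNS consensus regions found in both siFOXA1 lists (vertical axis, percent) against strength in siNS (horizontal axis, 10 equal bins, weakest left), by place. The strongest bin stands at 18.5% for gene starts and at 52.8% for other ends, 51.1% inside genes and 52.9% between genes.

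The members had middling ranks within the short siFOXA1 lists and ranks near the top within the long siNS lists. List length enters the percentile: with every list shortened to its best 12249 peaks, the median of the members found was 64.8 in siFOXA1 and 90.8 in siNS. The median percentile of the 315 members was 67.6 in siFOXA1 1 and 64.7 in siFOXA1 2, against 97.4 in siNS 1 and 96.4 in siNS 2. The groups did not overlap, at 66.1 ± 2.11 in siFOXA1 and 96.9 ± 0.728 in siNS (SD, n = 2 libraries each). Common regions inside genes stood at 70.2 ± 0.447 in siFOXA1 and 89.8 ± 6.27 in siNS, and those between genes at 72.1 ± 0.0694 in siFOXA1 and 87.2 ± 7.98 in siNS. Members therefore lay lower than the other common regions in siFOXA1 and higher in siNS. Regions at gene ends called in siNS alone had a siNS percentile of 68.7 ± 10.3, so the members were among the strongest gene-end sites of control cells.

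At the 90th percentile or above lay 41 and 33 members in siFOXA1 1 and 2, against 231 and 247 in siNS 1 and 2. Below the median of the list lay 102 and 121 members in siFOXA1 and 15 and 2 in siNS. Both siFOXA1 percentiles were lower than both siNS percentiles at 265 members (84.1%), against 1321 of the 2287 other common regions (57.8%). Both were higher at 16 members (5.08%) and at 210 other common regions (9.18%). The median difference, siFOXA1 minus siNS, was -28 percentile points for members and -14.7 for other common regions, and it was negative for 286 members (90.8%). In 54 members (17.1%) the region stood at or above the 90th percentile in both siNS lists and below the median of both siFOXA1 lists.

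**Figure D3:**
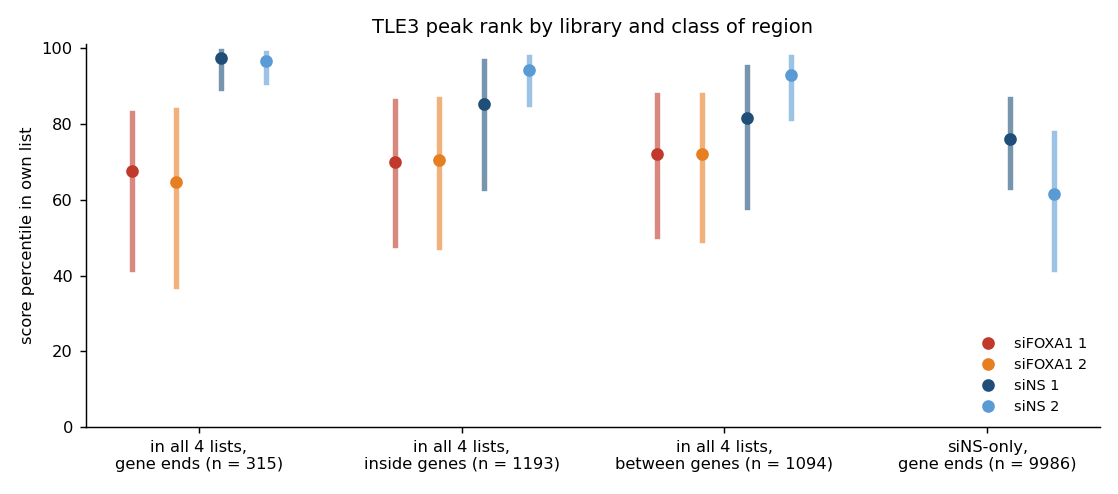
Score percentile within its own list (vertical axis) of members and of the other common regions, by library, siFOXA1 left of siNS; dots are medians and bars span the quartiles. Regions at gene ends in siNS alone are shown on the right. Members (left) sit at medians of 67.6 and 64.7 in siFOXA1 and 97.4 and 96.4 in siNS, a wider gap than for common regions inside or between genes.

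Within a group the order of the members was shared, and between groups much less so. Spearman's rho over the 315 members was 0.738 between the siFOXA1 lists and 0.759 between the siNS lists, and between 0.129 and 0.398 for the 4 pairs of a siFOXA1 and a siNS list. Over the 2287 other common regions the corresponding values were 0.714, 0.61, and 0.0861 to 0.359. These are descriptions across regions called in all 4 lists, which are not independent replicates.

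Peak width differed along with rank. The summed width of peaks in a member had a median of 381 and 412 bp in siFOXA1 1 and 2, against 1451 and 1417 bp in siNS 1 and 2, which is 396 ± 21.9 bp in siFOXA1 and 1434 ± 24 bp in siNS (SD, n = 2 each). Common regions inside genes had 418 ± 4.95 bp in siFOXA1 and 738 ± 133 bp in siNS. In siFOXA1 the members were thus about as wide as other common regions, and in siNS they were broader. The merged members spanned 413 to 7406 bp with a median of 1582 bp. The narrow siFOXA1 peaks mostly lay within the broad siNS ones: the best siFOXA1 1 peak was wholly inside a siNS 1 peak in 77.8% of members and inside a siNS 2 peak in 90.8%, and for siFOXA1 2 these shares were 76.5% and 89.2%. All 4 lists shared a stretch in 303 members (96.2%), with a median length of 318 bp. In 240 members (76.2%) that shared stretch itself came within 1 kb of the gene end, while for the rest only a broader part of the merged region did.

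At starts, the siFOXA1 peaks mostly lay to one side of the start and the siNS peaks over it. Among the 177 start members, a peak covered the start in 33 (18.6%) in siFOXA1 1 and 29 (16.4%) in siFOXA1 2, against 134 (75.7%) in siNS 1 and 133 (75.1%) in siNS 2. The median distance between peak centre and start was 648 and 616 bp in siFOXA1, against 415 and 448 bp in siNS. Centres lay upstream of the start at 99 and 96 members in siFOXA1 and at 71 and 81 in siNS. Most of the difference in coverage went with peak width: with siNS peaks trimmed about their middle to the width of the siFOXA1 peak, the start was covered in 13.6 to 18.1% by siFOXA1 peaks and in 24.3 to 27.1% by siNS peaks, over the 4 pairs of lists. In regions at starts called in siNS alone, the centre lay closer to the start, at a median of 194 bp in siNS 1 and 205 bp in siNS 2. There it was within 250 bp in 60.2% and 57.2% of 7793 regions, against 29.9% of the start members in each siNS list and 20.9% and 19.8% in siFOXA1 1 and 2. Peak centres of members thus lay further from the start in control cells too. A peak covered the start in 82.6% (siNS 1) and 74.7% (siNS 2) of the regions called in siNS alone. Peak widths were not matched between members and those regions.

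**Figure D4:**
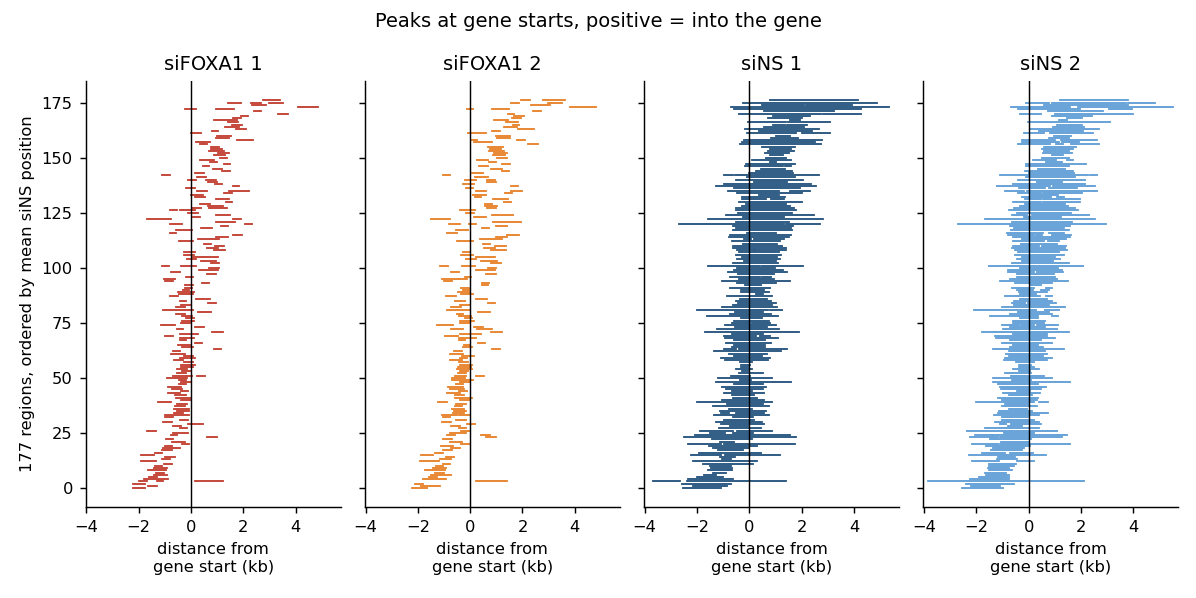
Extent of peaks along the gene (horizontal axis, kb from the start, positive into the gene) at the 177 members at starts, 1 row per region in the same order in all panels, siFOXA1 panels left of siNS. A peak crosses the start, at 0, in 33 and 29 rows in siFOXA1 and in 134 and 133 rows in siNS.

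The members touched 351 of 19974 protein-coding genes (1.76%), and 46 (14.6%) were near ends of more than 1 gene, so that the gene of such a region is not decided. The 10 regions with the highest mean percentile over the 4 lists were led by DLX4, a homeobox transcription factor. Its region at chr17:49975279-49977274 had scores of 184 and 184 in siFOXA1 1 and 2 and 192 and 239 in siNS 1 and 2, which are percentiles of 99.8 and 99.7 in siFOXA1 and 99 and 99.4 in siNS. It was near the top of every list, and it was a member in 12 of the 15 alternative settings described below. The TNK2 region, at chr3:195906450-195912383, stood at 98.6 and 98.4 in siFOXA1 and 99.7 and 99.8 in siNS. It was also among the widest, at 5934 bp, and the siFOXA1 peaks in it missed the promoter window shown above.

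Also in this highest set were the regions at CLASRP and ZNF296, at ETNK2, an ethanolamine kinase, at TMEM205 and CCDC159, at MB, which encodes the oxygen carrier myoglobin, at CABLES1, at PTK2B and CHRNA2, and at EPS8, an adaptor of receptor tyrosine kinase signalling. MB had scores of 48.3 and 56.5 in siFOXA1, against 658 and 529 in siNS. Its percentiles of 95.7 and 95.9 in siFOXA1 stood beside 100 and 100 (rounded) in siNS, a mean difference of -4.19 points that was 2.21 when ranked by peak width. Scores are the authors' own, without a stated definition, so their sizes are not comparable between lists. Of all members, 13 (4.13%) stood at or above the 90th percentile in all 4 lists, against 153 of 2287 other common regions (6.69%).

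Genes were also read by lists, each count beside 2 background shares: 1.76% of all protein-coding genes, and 3.18% of the 11041 genes whose ends had a siNS consensus region, had a member. Luminal identity genes contributed 4 of the 28 listed (ELF3, SPDEF, FOXA1 and TFAP2A), which is 14.3%, or 18.2% of the 22 whose ends held a siNS consensus region. ELF3 had a member at each end. The one 399 bp from its other end, at chr1:202017582-202019602, had percentiles of 92.5 and 89.1 in siFOXA1 and 100 and 100 in siNS. The one over its start, at chr1:202009331-202011665, had 86.8 and 89.2 in siFOXA1 and 99.6 and 98.7 in siNS. Both ELF3 regions stayed high in siFOXA1 while ranking lower than in siNS. The region of SPDEF, a prostate and breast epithelial ETS factor, lay 554 bp from its other end at chr6:34536183-34537248, also within 1 kb of PACSIN1. It stood at 94.6 and 84.8 in siFOXA1 and 99.7 and 99.6 in siNS. The region at the start of FOXA1, the silenced gene, spanned chr14:37594517-37596583 and also the start of TTC6, which runs the other way. It stood at 76.6 and 81.5 in siFOXA1 and 99.9 and 99.7 in siNS, with a peak of 904 bp in siFOXA1 1 and 2067 bp in siNS 1. Neither siFOXA1 list had a peak over the FOXA1 start: their peaks ended 88 bp (siFOXA1 1) and 48 bp (siFOXA1 2) upstream of it, and each covered all 300 bases of the TTC6 window. Both siNS lists had a peak over the FOXA1 start. Both siFOXA1 percentiles were lower than both siNS ones, as at 84.1% of all members. Ranked by peak width, however, the difference, siFOXA1 minus siNS, was 0.87 points in place of -20.7. TFAP2A, an AP-2 family factor, had 67.8 and 74.4 in siFOXA1 and 97.8 and 93.9 in siNS.

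The corepressor list gave 2 of 29 genes (6.9%, or 7.69% of the 26 with a siNS consensus region), TLE1 and TBL1X, a subunit of the NCOR complex. TLE1 had percentiles of 82.8 and 64.3 in siFOXA1 and 97.5 and 93.8 in siNS over its start at chr9:81688368-81690192. TBL1X had 58.6 and 24.6 in siFOXA1 and 86 and 97 in siNS. In both, every siFOXA1 percentile was lower than every siNS one, as it was at 84.1% of all members.

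The Notch list gave 3 of 28 genes (10.7%, or 13.6% of the 22 with a siNS consensus region): the ligand JAG1 and the repressors HES1 and HES4, which act with Groucho proteins. The HES1 region at chr3:194133812-194135522 ended 626 bp from the start and ranked high everywhere, at 97.2 and 95.2 in siFOXA1 and 100 and 99.8 in siNS. Ranked by peak width its difference was 2.14 points in place of -3.71. HES4 had 46.5 and 33.9 in siFOXA1 and 98 and 91.8 in siNS, and JAG1 had 24.8 and 26.2 in siFOXA1 and 94.5 and 91.2 in siNS. HES4 and JAG1 were thus below the median of both siFOXA1 lists and near the top in siNS, unlike HES1. With the top read as the 90th percentile or above in both siNS lists, 54 members (17.1%) had this pattern. No gene of the Wnt list (0 of 29) or of the immediate early and AP-1 list (0 of 28) had a member. Each had 25 genes whose ends held a siNS consensus region, too few for a count of 0 to be told from the background share of 3.18%.

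The TGF-beta and BMP list gave 3 of 22 genes (13.6%, or 17.6% of the 17 with a siNS consensus region). SMAD6, an inhibitor of BMP signalling, stood at 66.5 and 63.1 in siFOXA1 and 99.7 and 99.4 in siNS. SKIL, a corepressor of SMAD proteins, stood at 50.4 and 35 in siFOXA1 and 99.4 and 97.5 in siNS. SMAD2, a signal transducer, stood at 25.4 and 24.1 in siFOXA1 and 98.4 and 94.7 in siNS. All 3 were near the top in siNS and spread over the middle and lower part in siFOXA1. The siNS ranks were those of members in general, whose medians were 67.6 and 64.7 in siFOXA1 and 97.4 and 96.4 in siNS. The tyrosine kinase and ERK list and the cytokine list gave 1 gene each, 3.57% and 5.88% of their genes with a siNS consensus region, near the background. Of the tyrosine kinase and ERK list, TRIB1, a pseudokinase, was the 1 of 29 with a member, at 91.2 and 83.7 in siFOXA1 and 100 and 99.9 in siNS. Of the cytokine list, CISH, an inhibitor of cytokine receptor signalling, was the 1 of 19; its start is shared with MAPKAPK3 and stood at 38.1 and 77.3 in siFOXA1 and 98.4 and 97.4 in siNS.

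Steroid hormone response genes gave members in 2 lists. The androgen and apocrine list had 3 of 25 genes (12%, or 18.8% of the 16 with a siNS consensus region): FKBP5, a co-chaperone of steroid receptors, ABCC11, a transporter of apocrine glands, and SORD, sorbitol dehydrogenase. FKBP5 stood at 85.5 and 54.2 in siFOXA1 and 96.9 and 98.9 in siNS, and SORD at 5.87 and 17.9 in siFOXA1 and 96.6 and 93.7 in siNS. SORD was thus near the bottom of both siFOXA1 lists. The region at the other end of ABCC11 had 71.6 and 76.1 in siFOXA1 and 92.1 and 99.8 in siNS, a difference of -22.1 points that was 9.56 when ranked by peak width. The glucocorticoid list had 3 of 20 genes (15%, or 21.4% of the 14 with a siNS consensus region). NFKBIA, an inhibitor of NF-kappaB, differed widely between the siFOXA1 lists, at 83.4 and 15.2, against 99.5 and 98 in siNS. Its difference, siFOXA1 minus siNS, was -49.5 points, or -83.6 without siFOXA1 1 and -15.4 without siFOXA1 2. CEBPA, a leucine zipper factor, stood at 46.9 and 47.9 in siFOXA1 and 97.3 and 95.5 in siNS. MT2A, a metallothionein, stood at 0.139 and 44 in siFOXA1 and 97.6 and 98.4 in siNS, and its 4 lists shared no stretch. Of the separate nuclear receptor list, NR2F1 was the 1 of 24 with a member (4.17%, or 4.55% of the 22 with a siNS consensus region). The latter share is near the background of 3.18%. NR2F1 stood at 83.3 and 58.4 in siFOXA1 and 93.2 and 98.6 in siNS.

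The epithelial junction and polarity list gave 4 of 27 genes (14.8%, or 16% of the 25 with a siNS consensus region): the epithelial splicing regulators ESRP1 and ESRP2, the protease inhibitor SPINT1 and the tight junction protein CLDN4. ESRP2 stood at 82 and 83.2 in siFOXA1 and 100 and 99.8 in siNS, and ESRP1 at 77.3 and 81.5 in siFOXA1 and 99.7 and 99.3 in siNS. The 2 paralogues thus had similar ranks in each group. SPINT1 had 61.5 and 39.4 in siFOXA1 and 97 and 96.4 in siNS. CLDN4 had 71.6 and 12.4 in siFOXA1 and 98.4 and 97.7 in siNS.

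A further 4 lists gave 1 gene each, between 3.33% and 7.69% of their genes with a siNS consensus region: FN1, encoding fibronectin, of 25 basal and mesenchymal genes, RPL13 of 34 ribosomal protein genes, CCND3, encoding cyclin D3, of 32 cell cycle genes, and TET3, a 5-methylcytosine dioxygenase, of 28 chromatin regulators. FN1 was not ordered by group, at 84.3 and 91.4 in siFOXA1 and 27 and 95.3 in siNS, and its difference of 26.7 points was -7.45 without siNS 1. Over all 16 lists, 29 of 423 genes (6.86%) had a member, against 1.76% of all protein-coding genes. Counted among genes whose ends had a siNS consensus region, these are 8.26% of 351 listed genes and 3.18% of 11041 genes in all. The lists were chosen for this cell line with earlier results known, so these shares are no independent support for any theme.

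**Figure D5:**
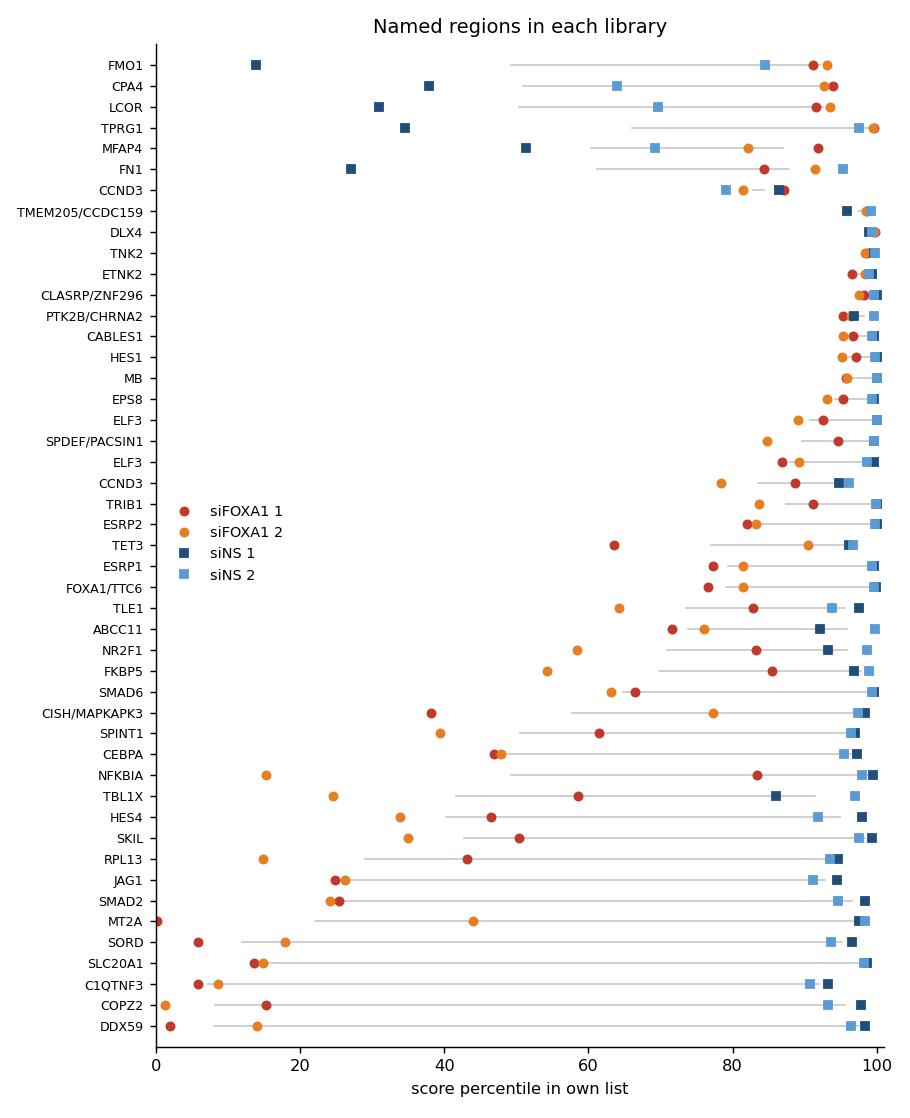
Score percentile (horizontal axis) of named members in each library, with circles for siFOXA1, squares for siNS and a grey line between the group means, ordered by the difference, siFOXA1 minus siNS. DLX4 lies between 99 and 99.8 in every list, whereas SORD lies at 5.87 and 17.9 in siFOXA1 and at 96.6 and 93.7 in siNS.

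A set of 10 genes had 2 members each at their ends: ELF3, CABLES1, SLC48A1, ZBTB7B, TRAF4, CCND3, TRAPPC9, CRIP2, LCOR and SLURP2. In LCOR, a ligand-dependent corepressor of nuclear receptors, the 2 went opposite ways. The region over the start had percentiles of 53.3 and 25.4 in siFOXA1 and 99.3 and 98.3 in siNS, and the region over the other end had 91.6 and 93.5 in siFOXA1 and 30.9 and 69.7 in siNS. The neighbouring regions of TRAPPC9, a trafficking complex subunit, differed in direction as deposited, at 93.9 and 97.8 in siFOXA1 and 62 and 92.3 in siNS for the region at chr8:140458969-140460202. The other, over the gene end at chr8:140456845-140458784 had 25 and 42 in siFOXA1 and 98 and 96.5 in siNS. The difference at the first of these, 18.7 points, was 3.55 without siNS 1, -1.44 with peaks widened by 250 bp and -1.9 ranked by peak width, so the opposite direction does not hold under those 2 settings. The region over the start of SLC48A1, a haem transporter, had 86.7 and 75 in siFOXA1 and 96.1 and 91.4 in siNS, while the one 777 bp away had 97.1 and 97.5 in siFOXA1 and 88.9 and 94.1 in siNS. Over the start the difference of -13 points turned positive with widened peaks (2.17), lists of equal length (3.01) and ranking by peak width (14.4). In ZBTB7B, a zinc finger repressor, both regions ranked lower in siFOXA1: 84.6 and 88.9 in siFOXA1 and 99.5 and 98.6 in siNS at the other end, and 66.2 and 47.4 in siFOXA1 and 99.6 and 98.6 in siNS over the start. CRIP2, a LIM domain protein, had its higher siFOXA1 ranks over the start, at 73.9 and 64.6 in siFOXA1 and 94.1 and 93.3 in siNS over the start. Its region at the other end had 6.06 and 13.7 in siFOXA1 and 95.6 and 89.8 in siNS.

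The 5 members ranking highest in siFOXA1 relative to siNS were FMO1 (a flavin monooxygenase), CPA4 (a carboxypeptidase), the LCOR region over its other end, TPRG1 and MFAP4. FMO1 had scores of 32.2 and 41.5 in siFOXA1 and 4.59 and 38.5 in siNS, with percentiles of 91.1 and 93.1 in siFOXA1 and 13.9 and 84.5 in siNS. TPRG1 had 99.7 and 99.5 in siFOXA1 and 34.5 and 97.6 in siNS. In all 5 the groups did not overlap, and siNS 1 was below siNS 2, so the size of these differences rests in part on siNS 1. Without siNS 1 the difference, siFOXA1 minus siNS, was 7.56 points at FMO1 in place of 42.9, 2.01 at TPRG1 in place of 33.5, 22.9 at LCOR in place of 42.3 and 17.7 at MFAP4 in place of 26.7. Over all members, siNS 1 was the lower siNS list in 97 of 315 (30.8%).

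Among the members ranking lowest in siFOXA1 relative to siNS were DDX59, a helicase, COPZ2, a coatomer subunit, C1QTNF3 and SLC20A1, a phosphate transporter. DDX59 had scores of 3.45 and 5.47 in siFOXA1 and 153 and 104 in siNS, with percentiles of 1.99 and 14 in siFOXA1 and 98.4 and 96.5 in siNS. The percentiles at COPZ2 were 15.2 and 1.19 in siFOXA1 and 97.9 and 93.2 in siNS. Each of these 2 regions was near the bottom of 1 siFOXA1 list and low in the other. The 5 widest members were PTK6 with SRMS, a pair of related tyrosine kinase genes (7406 bp), MIDN (6251 bp), TNK2 (5934 bp), ZBTB7B (5671 bp) and PDGFB, a platelet-derived growth factor chain (5187 bp). In PTK6 and SRMS the summed peak width was 487 and 515 bp in siFOXA1 and 7369 and 6072 bp in siNS, so nearly the whole breadth came from siNS.

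Member promoters were GC-rich but less often CpG-rich than those of genes with a region called in siNS alone at the start. The median GC content was 67% in the 151 member windows, 66.7% in 7419 windows of genes with a siNS-only region at the start and 62.7% in all 13792 windows. The ratio of observed to expected CpG was under 0.6 in 40 member windows (26.5%), against 10.8% of siNS-only windows and 33.6% of all windows. Of 16 motifs searched as exact letters on both strands, the first 4 below were picked after their values were seen. The AP-1 site TGANTCA was in 8.61% of member windows, 3.59% of siNS-only windows and 5.78% of all. The TATA box TATAAA was in 11.9% of member windows, 4.85% of siNS-only windows and 10% of all. The ETS core CCGGAA was in 15.2% of member windows, 31.3% of siNS-only windows and 23.1% of all, and the GC box GGGCGG was in 64.9%, 75.3% and 58.5% in the same order. The AP-2 site GCCNNNGGC was in 36.4% of member windows, 35% of siNS-only windows and 28.1% of all, the RBPJ core TGGGAA in 15.9%, 21.1% and 22.8%, and the CCAAT box in 35.8%, 36.7% and 37.1%. The forkhead core TGTTTAC was in 4 member windows (2.65%: CLSTN1, GSTP1, SOX12 and TNRC18), against 2.14% of siNS-only windows and 2.53% of all, which is close to the background. In the ELF3 window printed above the search found a CCAAT box, a TATA box and an RBPJ core (TGGGAA). A match is not a measured binding site, and 102 of the 151 windows had no base under peaks of both siFOXA1 lists.

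Near the 1 kb limit, the members just inside were MIEF1 at 966 bp, SYT2 at 962 bp and CSRP3 at 957 bp from a gene end. The common regions just outside were SLC25A10 and NCOA5, each at 1003 bp, and LOC124904791 at 1028 bp. MIEF1 had percentiles of 68.3 and 90.4 in siFOXA1 and 72.4 and 74.1 in siNS, and NCOA5 had 68.8 and 79.2 in siFOXA1 and 31.9 and 85.6 in siNS.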

How the data were processed

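For each ChIP library the authors deposited a peak list of 5 columns, without a header, which give chromosome, start, end, name and a score. The deposited score has no definition in the labels or lists and starts just above 2 in each list (2.01 to 2.06), so only its rank within a list was used. The submitters' processing notes name MACS2, SAMtools, BWA 0.7.5a and Trim Galore, and hg38 as the build. How the inputs entered the peak calls, and with which settings, is not given in the sources used here. Groups and replicate numbers came from the sample titles; the list of siFOXA1 2 carries another number in its name. The labels of the inputs name MDA-MB-454.

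Peaks on chromosomes 1 to 22 and X were merged, without the peaks elsewhere (4 and 9 in siFOXA1 1 and 2, 4 and 3 in siNS 1 and 2). No filter on low scores was applied. All 315 members have values in every list because the rule required a peak of all 4 lists. A siNS or siFOXA1 consensus region is a merged region with a peak in both lists of that group. Positions are 1-based. Genes came from a RefSeq table on GRCh38.p14, the assembly behind hg38. Strands, starts and promoter sequences came from a RefSeq table of promoter windows of the same assembly, matched by gene identifier. It held windows for 151 of the 182 genes with a member at the start. No untranslated region, exon or intron was told apart. Computation used Python 3.11.15, numpy 2.4.6, scipy 1.17.1 and matplotlib 3.10.9, and the merging, the distances and the motif search were tested on simulated data.

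Named members were the 10 highest by mean percentile, the 5 highest and 5 lowest differences, the 5 widest, genes with 2 members, up to 3 genes a list by mean percentile and 3 regions on each side of the 1 kb limit; 1 of them is not reported here. Where CLDN4 and TFAP2A are the fourth of their lists, they were added to complete the list. The members, the 16 gene lists and the tests were chosen with earlier results of these data known. Alternatives covered the score threshold, the overlap, the distance, the list length, the ranking and each library left out.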

Additional observations from a re-analysis of the deposited data

How the results depend on the processing

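No paired analysis was possible because the results come from no test. In the 15 alternatives siFOXA1 stayed below siNS in percentile and width, and gene starts below other ends in the share found again, wherever both were computed. Keeping the better-scoring 50% of each list, there were 160 members at 183 genes, the share of siNS regions at gene ends that were common was 2.29% (1.66% at starts), the siFOXA1 percentile was 63.2, and widths were 462 bp in siFOXA1 and 1368 bp in siNS. With lists shortened to 12249 peaks each, 257 of the 315 members were found again, members were 16.3% of common regions, and 7.43% of siNS regions at gene ends were common (5.93% at starts, 25.1% at other ends), with a siNS percentile of 90.8 and a siNS width of 1508 bp. With peaks widened by 250 bp the shares were 13.8%, 3.55% and, at starts, 2.68%, with a siNS width of 1589.5 bp. Within 500 bp of an end, members were 10.1% of common regions, with a siFOXA1 percentile of 63.9 and a siNS width of 1541 bp. Within 2 kb, the values were 15.8%, 3.49% of siNS regions (2.51% at starts), 68.6 and 1272 bp. Measured to the stretch covered by all lists, the shares were 9.57%, 2.35%, 1.72% at starts and 9.04% at other ends. Ranking by width gave percentiles of 63.8 in siFOXA1 and 94.7 in siNS. Ends of all genes gave 552 members and starts alone 177. Using the best peak only, 71.2% of starts were covered in siNS, and 25.7% with trimmed siNS peaks. The cause of these shifts was not tested beyond what each setting changes.

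Leaving out 1 library, the number of members ranged between 300 and 492 and of genes between 333 and 558. Members were between 7.26% and 14.7% of common regions. The share of siNS regions that were common ranged between 2.09% and 4.62% at gene ends, 1.61% and 3.73% at starts and 5.04% and 16.2% at other ends. Percentiles ranged between 46.7 and 66.5 in siFOXA1 and 95.1 and 97.5 in siNS, and widths between 339 and 398 bp in siFOXA1 and 1173 and 1412 bp in siNS. Without siFOXA1 1 there were 492 members and without siFOXA1 2 there were 491, with percentiles of 46.7 and 50.1 in siFOXA1, since a region then needs a peak in 1 siFOXA1 list.

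Of the 68 named members, 62 were found in at least 12 of the 15 alternatives, and each in at least 9. Of 898 values of named members, 25 changed sign, 15 of them at members whose groups did not overlap and 10 at members whose groups did. Of those 10, 6 came from leaving out 1 library: without siNS 1, TMEM205/CCDC159 was at -0.646 and FN1 at -7.45; without siFOXA1 1, CABLES1 over its start was at 5.52 and CCND3 over its other end at -1.26; without siNS 2 that CCND3 region was at -2.14; without siFOXA1 2, MIEF1 was at -5.03. The 15 are as follows. Ranked by width, the difference (siFOXA1 minus siNS) was 2.03 at CLASRP/ZNF296, 0.121 at ETNK2, 2.14 at HES1, 2.21 at MB, 3.86 at CABLES1, 0.87 at FOXA1/TTC6, 14.4 at SLC48A1, -1.9 at TRAPPC9 and 9.56 at ABCC11. With shortened lists it was 0.886 at ETNK2, 2.21 at PTK2B/CHRNA2, 3.01 at SLC48A1 and 8.22 at CSRP3. With widened peaks it was 2.17 at SLC48A1 and -1.44 at TRAPPC9. The depth behind the lists is unknown, so a region absent from a list was not called rather than unbound.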

Other observations

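Of the 315 members, 75 (23.8%) also lay within 1 kb of an end of a long non-coding RNA gene, against 22% of the 9986 regions at gene ends called in siNS alone. No member lay that close to a tRNA gene, against 49 of the siNS-only regions (0.491%), or to a snoRNA gene, against 31 (0.31%). With 315 members, a count of 0 says little at these shares.

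MicroRNA genes were near 7 members (2.22%, against 1.42% of siNS-only regions): MIR6792, MIR6773, MIR6887, MIR615, MIR4761, MIR4259 and, in 1 region, MIR203A with MIR203B. MIR203A encodes a microRNA known from epithelia, and its region, also at an end of ASPG, spanned chr14:104115828-104119419. The region had percentiles of 55.2 and 35.2 in siFOXA1 and 98.6 and 93.4 in siNS. Both siFOXA1 values were thus lower than both siNS values, as at 84.1% of all members. The mature sequence below is from RefSeq, with the seed (bases 2 to 8) in capitals, and lies at chr14:104117469-104117490 on the plus strand.
miR-203a-3p: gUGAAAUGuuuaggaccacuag

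Another common region lay within 10 kb of 50 members (15.9%), against 16.7% of common regions inside genes and 12.3% of those between genes. Members were found on 23 chromosomes, with the most on chromosome 1 (47), chromosome 17 (27) and chromosomes 3 and 11 (21 each). As a share of siNS consensus regions at gene ends, members were 4.15% on chromosome 1, 4.06% on chromosome 17, 3.52% on chromosome 3 and 3.32% on chromosome 11. The share was 5.28% on chromosome 22 and 4.64% on chromosome 18, against 2.96% over all chromosomes.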
